A study of Mus musculus with 24 samples.

Results

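The 10 genes described here build fatty acids from small carbon units, place double bonds in them or regulate these steps: Acss2, Acly, Acaca, Fasn, Elovl6, Me1, Srebf1, Thrsp, Fads1 and Fads2. They were chosen by name, and every probe set annotated to one of these symbols alone was kept. That gave 26 of the 45101 probe sets and 10 of the 18193 genes that have a probe set of their own on the array. Each of the 10 genes was found, from 1 probe set for Fasn and for Srebf1 to 6 for Acly, and 1 more probe set that carries Acss2 together with another symbol was left out. In liver 20 of the 26 probe sets had a mean level above the median of all probe sets, and in muscle 21 did. The others are called dim.

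RNA of liver and of hindleg skeletal muscle was taken from C57BL/6 mice on the day of birth (day 0) and read on Affymetrix arrays, as log2 values. From day 1 of pregnancy the mothers ate 20% casein (normal protein, NP) or 8% casein (low protein, LP). Their drinking water was plain or held 1% taurine, an amino acid derivative, which gave the further groups NPtau and LPtau. Each of the 8 groups of tissue and diet had 3 arrays, 24 in all, and this number limits the precision. All pups share the strain and the age, and the treatment reached them through the mother. Dams and litters are not named in the labels, so a p-value here reflects the scatter of these arrays, part of which may be technical. In whole tissue, fewer cells of a type and less RNA per cell cannot be told apart. Values of liver and of muscle were normalized in separate runs, so levels are not compared between tissues, nor between probe sets.

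In fatty acid synthesis, cytosolic acetyl-CoA comes from citrate through ATP citrate lyase (Acly) or from acetate through an acetyl-CoA synthetase (Acss2). Acetyl-CoA carboxylase (Acaca) turns it into malonyl-CoA, and fatty acid synthase (Fasn) joins these units into palmitate with NADPH that malic enzyme (Me1) helps to supply. Elovl6 lengthens the product, and Fads1 and Fads2 are the desaturases of polyunsaturated fatty acids. Srebf1 encodes a transcription factor that switches on many of these genes, and Thrsp is a nuclear protein that responds to thyroid hormone and is abundant in tissues that make fat. Liver and adipose tissue are the main sites of this synthesis.

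The promoters of Acss2, Me1 and Fads2 are shown because these genes had the largest differences of LP from NP in liver, and that of Fasn because its LP and NP levels overlapped. Each is the 250 bases upstream of a RefSeq transcription start in GRCm38.p6, written 5′ to 3′ on the strand of the gene: chr2:155517793-155518042 on the plus strand for Acss2, chr9:86695915-86696164 on the minus strand for Me1, chr19:10101504-10101753 on the minus strand for Fads2 and chr11:120824548-120824797 on the minus strand for Fasn. Capitals mark CCAAT boxes (CCAAT or ATTGG) and GC boxes (GGGCGG or CCGCCC).
Acss2: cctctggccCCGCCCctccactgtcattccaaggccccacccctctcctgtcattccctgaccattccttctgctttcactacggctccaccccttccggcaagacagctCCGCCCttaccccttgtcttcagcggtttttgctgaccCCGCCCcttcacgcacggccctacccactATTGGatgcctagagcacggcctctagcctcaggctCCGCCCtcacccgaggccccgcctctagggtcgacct
Me1: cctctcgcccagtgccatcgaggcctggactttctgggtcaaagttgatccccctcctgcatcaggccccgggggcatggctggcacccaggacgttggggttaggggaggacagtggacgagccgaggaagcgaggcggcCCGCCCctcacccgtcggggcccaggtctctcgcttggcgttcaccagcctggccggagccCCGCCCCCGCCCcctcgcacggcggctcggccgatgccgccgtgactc
Fads2: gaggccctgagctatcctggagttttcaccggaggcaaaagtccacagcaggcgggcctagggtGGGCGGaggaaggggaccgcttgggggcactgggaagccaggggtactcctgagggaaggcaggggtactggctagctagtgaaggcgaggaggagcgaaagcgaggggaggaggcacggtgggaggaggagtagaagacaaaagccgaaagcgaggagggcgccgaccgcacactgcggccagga
Fasn: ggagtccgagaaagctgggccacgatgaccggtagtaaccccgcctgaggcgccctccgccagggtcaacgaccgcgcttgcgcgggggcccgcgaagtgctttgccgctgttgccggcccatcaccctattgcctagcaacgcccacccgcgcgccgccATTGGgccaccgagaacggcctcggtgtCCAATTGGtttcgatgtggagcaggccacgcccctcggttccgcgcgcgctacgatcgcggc
The Acss2 window held 1 CCAAT box and 4 GC boxes. The Me1 window, the outermost of 2 starts listed, held 3 GC boxes and the Fads2 window held 1. The Fasn window held 3 CCAAT boxes, a pair of which share letters, and no GC box. RefSeq windows were matched for 9 of the 10 genes, 12 windows in all, and Fads1 had none. CCAAT was found on either strand in 6 of the 12 windows and in 33.85% of all 32851 promoter windows of the same length, and GGGCGG in 6 of the 12 against 32.74%. A sterol regulatory element of the form TCACNCCAC was in 0 of the 12 against 1.05%, and an E-box of the form CACGTG in 0 of the 12 against 6.02%. These are matches of letters and not binding sites.

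In newborn liver low protein went with lower mRNA of the acetate-using enzyme Acss2 and of the NADPH supplier Me1. Acss2 was 9.65-fold and 5.89-fold lower on its pair of bright probe sets, and Me1 2.43-fold and 2.63-fold lower. The desaturase Fads2 was 3.25-fold to 4.37-fold lower on 3 probe sets. It did not pass the threshold, with adjusted p of 0.0508, 0.0517 and 0.0841 in limma. On their brightest probe sets the core enzymes Acly, Acaca, Fasn and Elovl6 and the regulator Srebf1 showed no difference beyond the spread of their replicates. With limma 4 of the 26 probe sets fell at an adjusted p under 0.05, against 0.719% of the 45037 probe sets tested, and 0 rose, against 0.515%. At an unadjusted p under 0.05 there were 9 of 26, against 21.0%. The 3 LP values lay below the 3 NP values without overlap in 8 of 26, against 11.0%, and above them in 2, against 16.8%. On the brightest probe set of each gene in liver, 9 of the 10 genes had a negative difference, against 42.2% of all probe sets. The median was -0.19 beside 0.044 over all probe sets. Among the 9, Acly, Elovl6, Fasn, Acaca and Thrsp lay between -0.20 and -0.04, and each turned positive in at least 1 fit without 1 array. The 4 calls rest on few arrays: without NP replicate 1 or 3 or LP replicate 2 or 3 none of them passed, when the calls over all probe sets dropped from 556 to between 9 and 29. The differences themselves stayed negative without any 1 NP or LP array, from -3.54 to -3.01 and from -2.84 to -2.23 on the pair of Acss2 probe sets and from -1.49 to -1.12 and from -1.52 to -1.16 on that of Me1.

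**Figure D1:**
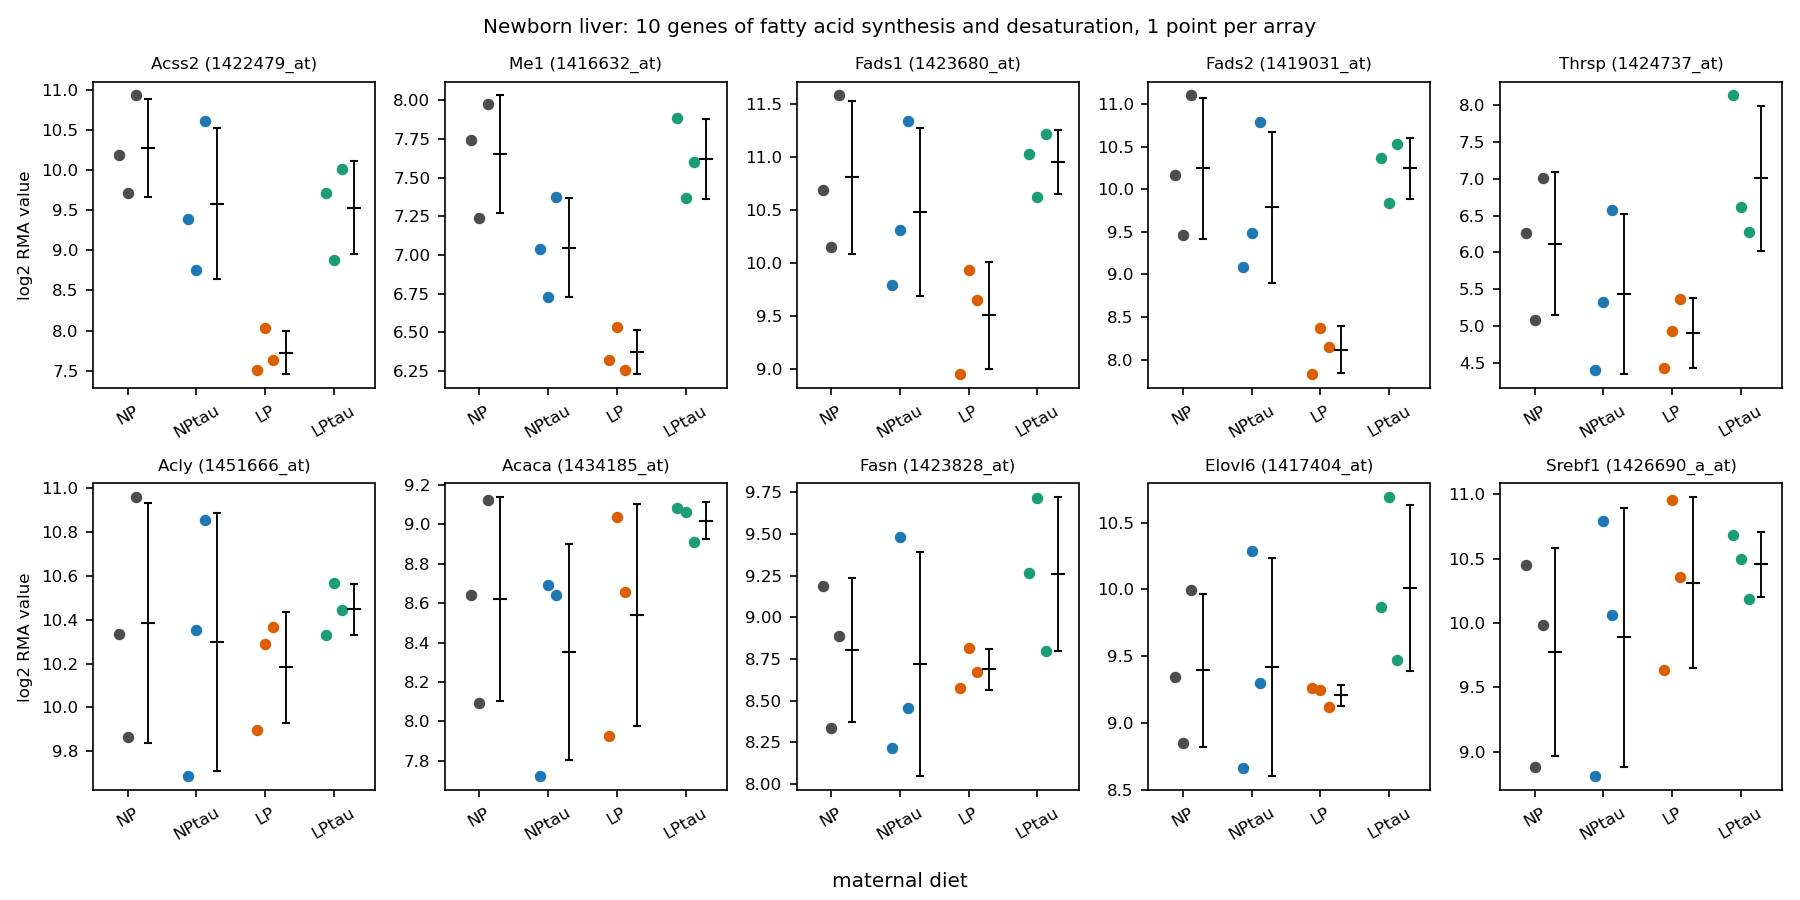
Log2 level of the 10 genes in newborn liver, on the brightest probe set of each gene when both tissues are averaged, with 1 panel per gene and the 4 maternal diets on the x axis. Points are arrays, the horizontal tick is the mean and the bar is ± SD (n = 3). The LP points of Acss2, Me1 and Fads2 lie below all points of the other diets, while those of Fasn, Acly, Acaca and Srebf1 overlap with NP.

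The supply of acetyl-CoA and NADPH held all 4 calls. Acss2, on probe set 1422478_a_at, read 10.03, 9.50 and 10.56 in NP liver, 8.92, 8.58 and 10.06 in NPtau, 7.07, 6.87 and 6.34 in LP, and 9.15, 8.11 and 9.40 in LPtau. The LP arrays were the 3 lowest of the 12, while NP and LPtau each overlapped with NPtau and not with each other. LP minus NP was -3.27 on the log2 scale (SE 0.43, 3 arrays per group), with an adjusted p of 0.0155 in limma. On 1422479_at the Acss2 arrays read 10.19, 9.72 and 10.93 in NP, 9.39, 8.75 and 10.61 in NPtau, 7.51, 8.03 and 7.63 in LP, and 9.71, 8.88 and 10.01 in LPtau. The LP arrays were again the lowest, and the difference was -2.56 (SE 0.46, adjusted p = 0.0311 with limma). The third Acss2 probe set, 1446542_at, was dim and went the other way, with 5.20, 5.26 and 5.09 in NP and 5.62, 5.49 and 5.51 in LP. Its groups did not overlap, and its difference was 0.36 (adjusted p = 0.145 with limma).

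Me1, on 1416632_at, read 7.74, 7.24 and 7.98 in NP liver, 7.04, 6.73 and 7.37 in NPtau, 6.32, 6.53 and 6.26 in LP, and 7.89, 7.37 and 7.60 in LPtau. The 3 LP values were the lowest, those of NPtau came next and overlapped with NP, and those of LPtau lay within the NP range. Me1 fell by 1.28 in LP against NP on this probe set (SE 0.21, adjusted p = 0.0266 with limma). On 1430307_a_at the arrays read 7.94, 7.98 and 8.65 in NP, 7.62, 7.29 and 7.96 in NPtau, 6.32, 7.02 and 7.03 in LP, and 8.37, 7.71 and 8.02 in LPtau, and Me1 fell by 1.40 (SE 0.27, adjusted p = 0.0379 with limma). Acly, which makes acetyl-CoA from citrate, gave on its brightest probe set 1451666_at 10.33, 9.87 and 10.96 in NP and 9.90, 10.29 and 10.37 in LP. These ranges overlapped and the difference was -0.20 (95% interval -0.87 to 0.47). The 5 other Acly probe sets, 3 of them dim, lay between -0.63 and 0.13, and none was called.

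The desaturases were low in LP liver on their bright probe sets without passing the threshold. Fads2, on 1419031_at, read 10.17, 9.46 and 11.10 in NP, 9.09, 9.49 and 10.79 in NPtau, 7.83, 8.37 and 8.15 in LP, and 10.37, 9.84 and 10.53 in LPtau. All LP arrays lay below every other array, and the rest overlapped. The difference was -2.13 (SE 0.46, adjusted p = 0.0517 with limma). On 1449325_at it was -1.70 (SE 0.36, adjusted p = 0.0508 with limma). The third Fads2 probe set, 1443838_x_at, gave -1.80 (SE 0.47, adjusted p = 0.0841 with limma). In limma with 1 probe set per gene, 1449325_at had an adjusted p of 0.0396, and at least 1 of the 3 passed above the median level, with trend and robust eBayes and with Xist in the fit, but none with loess. Without 1 NP or LP array at a time the adjusted p of 1419031_at in limma ran from 0.0448 to 0.159. Fads1, on 1423680_at, read 10.68, 10.15 and 11.58 in NP, 9.79, 10.30 and 11.34 in NPtau, 8.95, 9.93 and 9.65 in LP, and 11.02, 10.62 and 11.21 in LPtau. LP lay below NP without overlap, and the difference was -1.30 (SE 0.43, adjusted p = 0.135 with limma). The dimmer Fads1 probe set 1440444_at gave -0.22 (adjusted p = 0.399 with limma).

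The enzymes that assemble and lengthen the chain did not separate NP from LP. Fasn read 9.19, 8.34 and 8.89 in NP liver, 8.22, 9.48 and 8.45 in NPtau, 8.57, 8.82 and 8.67 in LP, and 9.26, 9.72 and 8.80 in LPtau. Its LP values lay within the NP range, and the difference was -0.12 with a 95% interval of -0.85 to 0.61, which leaves room for a change of either sign. Acaca, on its bright probe set 1434185_at, read 8.64, 8.09 and 9.12 in NP and 7.93, 9.04 and 8.66 in LP, a difference of -0.08 (95% interval -0.82 to 0.66). Its dim probe set 1427595_at differed by 0.54 and did not overlap, and it was not called (adjusted p = 0.341 with limma). Elovl6, on 1417404_at, read 9.34, 8.85 and 9.99 in NP and 9.26, 9.24 and 9.12 in LP, a difference of -0.19 (95% interval -1.11 to 0.73). The other Elovl6 probe sets gave -0.51 and 0.51, with overlap in both.

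The regulators also overlapped. Srebf1 read 10.45, 8.88 and 9.99 in NP liver, 8.81, 10.79 and 10.06 in NPtau, 9.63, 10.95 and 10.36 in LP, and 10.69, 10.50 and 10.18 in LPtau. The difference of LP from NP was 0.54 (95% interval -0.60 to 1.68), the opposite sign to the bright probe sets of Acss2, Me1 and Fads2. Thrsp, on 1424737_at, read 6.27, 5.08 and 7.01 in NP, 4.40, 5.32 and 6.57 in NPtau, 4.42, 4.93 and 5.36 in LP, and 8.13, 6.61 and 6.28 in LPtau. The LP and NP ranges overlapped, and the difference was -1.22 (SE 0.64, adjusted p = 0.300 with limma). The other Thrsp probe sets gave 0.07 on 1422973_a_at, which was dim, and -0.04 on 1444166_at in liver.

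Taurine in the water of low protein mothers went with higher values of the genes that were low in LP, and none of them was called. The comparison of LPtau with LP uses the same LP arrays as that of LP with NP, so that low LP values enter both. With limma 0 of 26 probe sets passed, as did 0% of all probe sets, while 10 of 26 had an unadjusted p under 0.05, against 7.06%. The LPtau values lay above the LP values without overlap in 12 of 26, against 5.60%, and below them in 1, against 6.48%, which was the dim Acss2 probe set. On the brightest probe set of each gene the median was 0.69, beside -0.014 over all probe sets. Acss2 gave 2.13 (SE 0.43, adjusted p = 0.215 with limma) on 1422478_a_at and 1.81 on 1422479_at. Me1 gave 1.25 (SE 0.21, adjusted p = 0.129 with limma) on 1416632_at and 1.24 on 1430307_a_at. Fads2 gave 2.13, 1.71 and 1.64 on its 3 probe sets, and Fads1 gave 1.44 (SE 0.43) on 1423680_at. Thrsp gave 2.10 (SE 0.64, adjusted p = 0.505 with limma) on 1424737_at, where all 3 LPtau arrays lay above the LP arrays. Of the chain-building enzymes, Elovl6 gave 0.80 on 1417404_at and 0.88 on 1417403_at, both without overlap, Fasn gave 0.57, Acaca 0.48 on 1434185_at, and the regulator Srebf1 0.14.

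**Figure D2:**
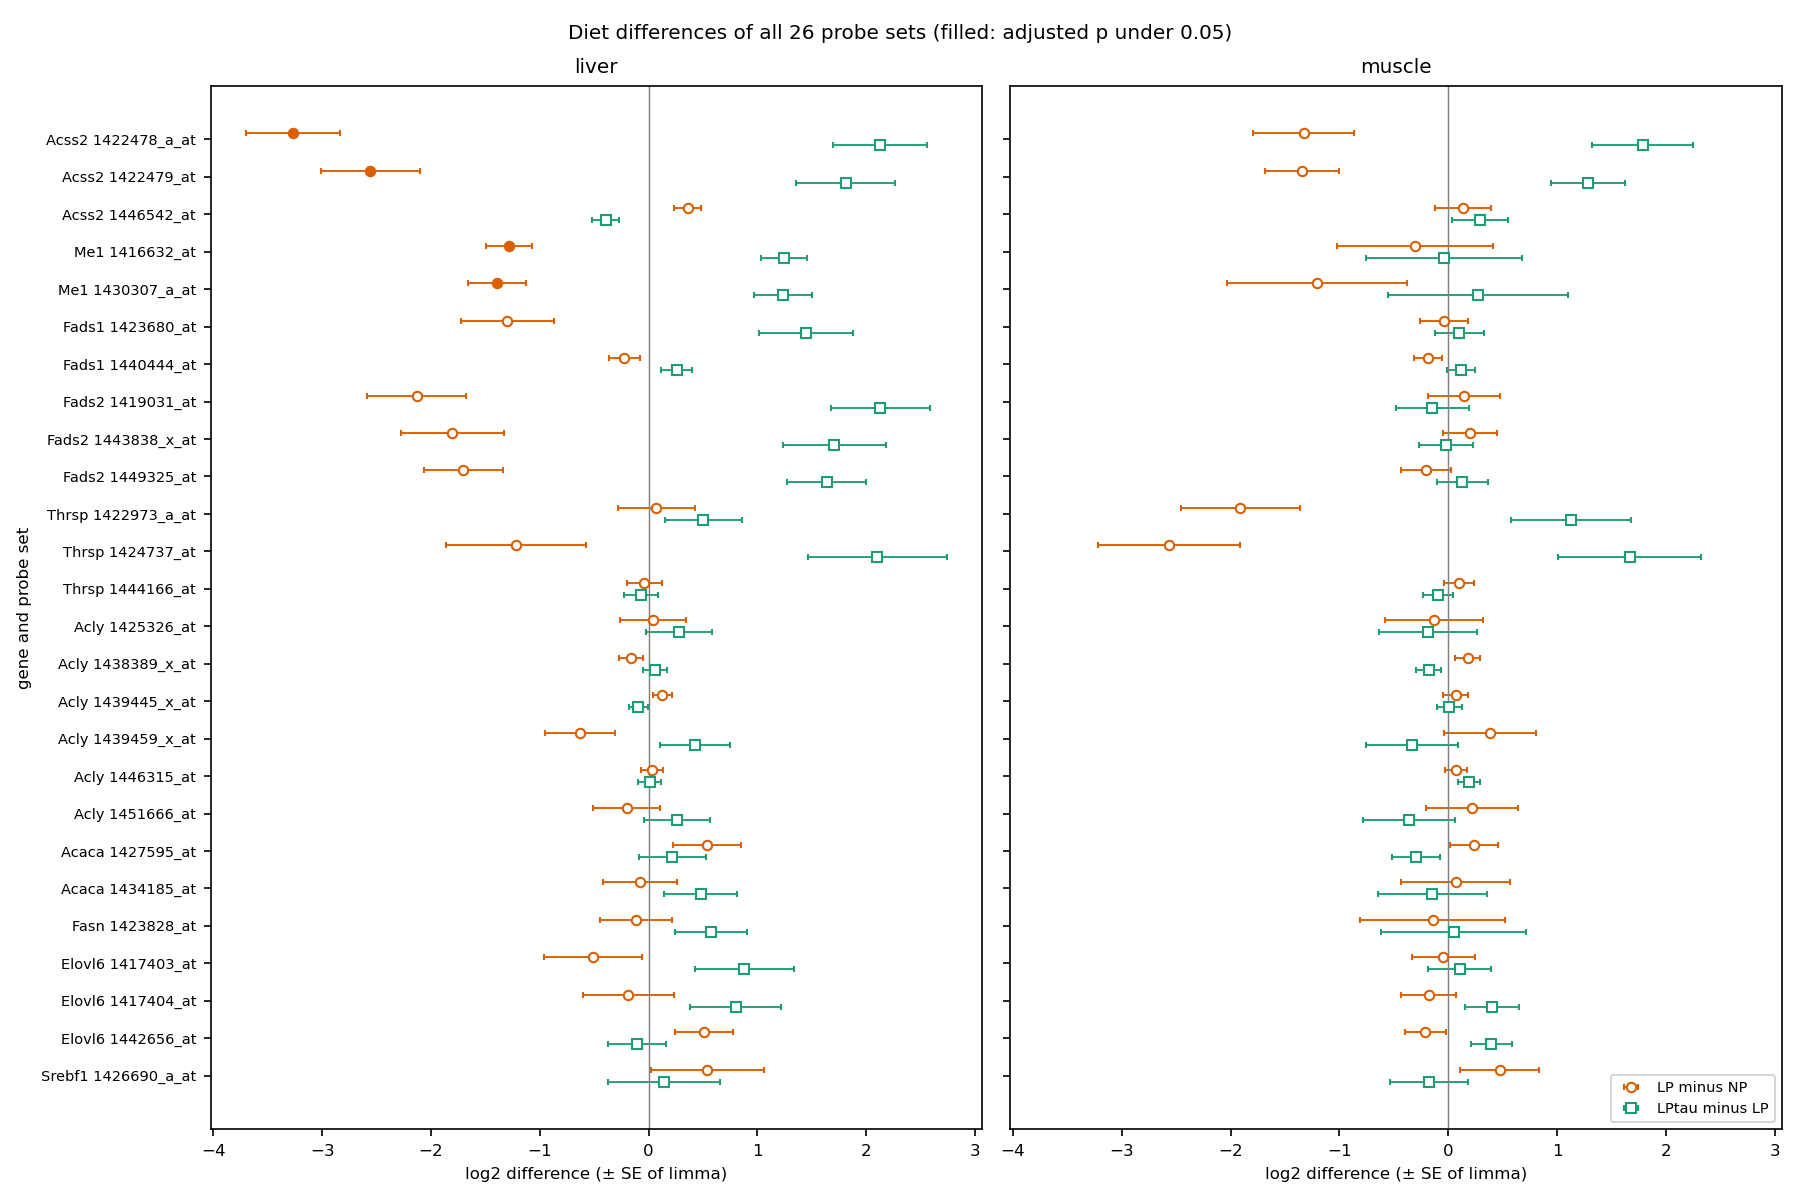
Log2 differences (x axis) with the SE of limma for all 26 probe sets (y axis), in liver and in muscle, for LP minus NP (circles) and LPtau minus LP (squares), which share the LP arrays. The only filled symbols, those with an adjusted p under 0.05, are LP minus NP of 2 probe sets each of Acss2 and Me1 in liver.

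The other diet comparisons in liver, which reuse the same 12 arrays, gave no call for these genes. For NPtau against NP, the effect of taurine on a normal diet, 0 of 26 passed with limma (0% of all), and 1 had an unadjusted p under 0.05, against 3.07%. That probe set was Me1 1416632_at at -0.60 (SE 0.21). Acss2 gave -0.84 and -0.70 on its bright probe sets, with overlapping groups. For LPtau against NP 0 passed with limma (0% of all), and 2 had an unadjusted p under 0.05, against 6.78%. They were Acss2 1422478_a_at at -1.14 (95% interval -2.09 to -0.19) and Acaca 1427595_at at 0.76. Here Me1 1416632_at gave -0.03 (95% interval -0.50 to 0.44) and Fads2 1449325_at -0.06 (95% interval -0.86 to 0.73), so that differences up to those bounds are not excluded by these arrays. For LPtau against NPtau 0 passed with limma (0% of all), and 2 had an unadjusted p under 0.05, against 4.45%, Me1 1416632_at at 0.57 and Thrsp 1424737_at at 1.58. The interaction asks whether taurine acts differently under low and normal protein. With limma 0 of 26 passed (0% of all), and 9 had an unadjusted p under 0.05, against 7.62%. It was 2.97 (SE 0.61, adjusted p = 0.417 with limma) for Acss2 1422478_a_at, 1.85 (SE 0.30, adjusted p = 0.313 with limma) for Me1 1416632_at and 2.58 (SE 0.64, adjusted p = 0.529 with limma) for Fads2 1419031_at.

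In newborn muscle none of the 26 probe sets was called in any comparison, and the largest differences of LP from NP were negative ones of Thrsp and Acss2. With limma 0 fell in LP against NP, where 0.0111% of all probe sets fell, and 0 rose, where 0.00666% did. An unadjusted p under 0.05 was seen in 4 of 26, against 10.3%, and LP lay below NP without overlap in 5, against 10.2%, and above it in 0, against 8.38%. The median over the brightest probe sets was -0.09, beside -0.0042 over all probe sets.

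Acss2, on 1422479_at, read 8.48, 8.74 and 9.05 in NP muscle, 8.53, 8.32 and 9.77 in NPtau, 7.16, 7.94 and 7.13 in LP, and 8.65, 8.81 and 8.62 in LPtau. All LP values lay below all others, as in liver. The difference of LP from NP was -1.35 (SE 0.34, adjusted p = 0.158 with limma), and 1422478_a_at gave -1.33 (SE 0.46). Thrsp, on 1424737_at, read 8.33, 8.75 and 9.35 in NP, 8.30, 8.34 and 10.43 in NPtau, 6.09, 7.16 and 5.47 in LP, and 7.39, 7.29 and 9.05 in LPtau. Its LP values were the 3 lowest of the 12, and the difference was -2.57 (SE 0.65, adjusted p = 0.158 with limma), 5.93-fold. Its probe set 1422973_a_at gave -1.91 (SE 0.55, adjusted p = 0.218 with limma), and 1444166_at gave 0.10.

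For LPtau against LP in muscle 0 of 26 fell, where 0.00444% of all probe sets fell, and 0 rose, where 0.00888% did. An unadjusted p under 0.05 was seen in 3 of 26, against 11.3%. LPtau lay above LP without overlap in 6, against 8.74%, and below it in 0, against 6.36%. Acss2 gave 1.28 (SE 0.34, adjusted p = 0.223 with limma) on 1422479_at and 1.79 (SE 0.46, adjusted p = 0.211 with limma) on 1422478_a_at. Thrsp gave 1.67 (SE 0.65, adjusted p = 0.384 with limma) on 1424737_at. In the remaining muscle comparisons limma called 0 of 26 and 0% of all probe sets. An unadjusted p under 0.05 was seen in 0 for NPtau against NP (0.822% of all), in 1 for LPtau against NP (3.74%), in 1 for LPtau against NPtau (6.32%), both of Acly, and in 3 for the interaction (5.94%), of Acss2 and Acly. In each case the Acly probe set was the dim 1446315_at, at 0.26, 0.41 and 0.34 in that order. The brightest Acly probe set, 1451666_at, had the opposite sign, at -0.14, -0.57 and -0.79.

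**Figure D3:**
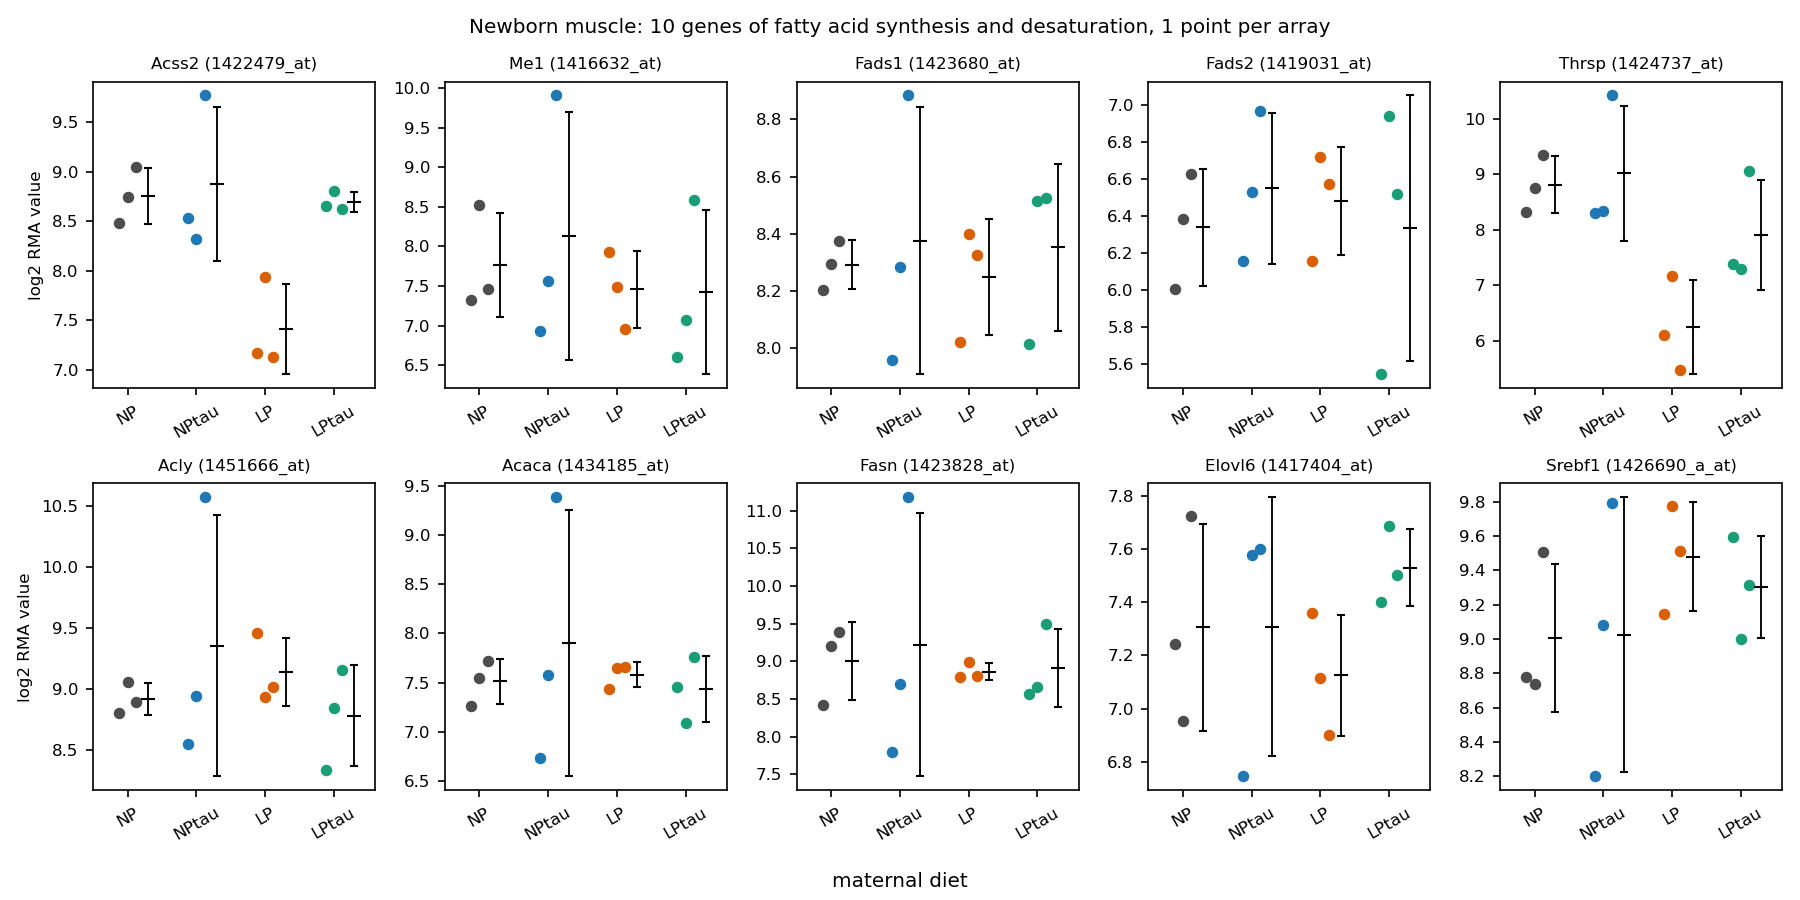
Log2 level of the 10 genes in newborn muscle, drawn for the same probe sets as in liver, with the 4 maternal diets on the x axis, points for arrays and mean ± SD (n = 3). The LP points of Acss2 and Thrsp lie lowest. For every gene but Elovl6, 1 NPtau array is the highest of all 12, though only narrowly for Fads2 and Srebf1.

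On their brightest probe sets the remaining members overlapped between NP and LP in muscle, with 1 NPtau array far above the rest for several. Fasn read 8.42, 9.20 and 9.40 in NP muscle, 7.79, 8.70 and 11.18 in NPtau, 8.79, 8.99 and 8.81 in LP, and 8.57, 8.66 and 9.50 in LPtau. Its difference of LP from NP was -0.14 (95% interval -1.62 to 1.33). Me1, on 1416632_at, read 7.32, 8.52 and 7.46 in NP, 6.94, 7.57 and 9.91 in NPtau, 7.93, 7.49 and 6.96 in LP, and 6.60, 7.08 and 8.58 in LPtau, a difference of -0.31 (95% interval -1.89 to 1.28). NPtau replicate 3 held the highest value of both. The other Me1 probe set, 1430307_a_at, gave a larger difference of -1.21 (95% interval -3.03 to 0.62), with overlapping groups. Acly and Acaca gave 0.22 and 0.07 on their brightest probe sets, Elovl6 -0.18 and Srebf1 0.47. The desaturases Fads1 and Fads2 gave -0.04 (95% interval -0.53 to 0.45) and 0.14 (95% interval -0.59 to 0.88). The other probe sets of these genes gave -0.13 to 0.39 for Acly, 0.24 for Acaca, -0.05 and -0.21 for Elovl6, -0.19 for Fads1, and 0.20 and -0.21 for Fads2. Acss2 1446542_at, which was dim in liver and just above the median level in muscle, gave 0.13.

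Some of these genes varied with adipocyte markers in muscle. Of 6 markers measured 5 lay above the median level, among them Adipoq and Fabp4, and Lep was dim. Relative to the NP mean, their mean level ran from -0.43 to 0.58 in NP, -2.21 to 1.84 in NPtau, -1.69 to -0.54 in LP and -2.48 to 0.22 in LPtau, and the highest was NPtau replicate 3. Over the 12 muscle arrays, which share their diets and normalization, the correlation with this mean was 0.92 for Me1, 0.80 for Fasn and 0.42 for Acss2, and without NPtau replicate 3 it was 0.87, 0.65 and 0.11. Acly, Acaca, Thrsp and Fads1 had 0.78, 0.75, 0.68 and 0.60 with all arrays and 0.63, 0.56, 0.51 and 0.30 without that one. Fads2, Elovl6 and Srebf1 had 0.38, 0.29 and 0.21, and 0.16, 0.16 and -0.04 without it. In LP against NP all 6 markers were lower, with a median of -1.32. Of 5 brown adipocyte markers all were lower in LP, and 3 lay above the median level. Only Cox7a1 was called, a cytochrome oxidase subunit that muscle makes as well as brown fat. It fell by 2.27 (adjusted p = 0.0384 with limma) and rose by 2.47 in LPtau against LP (adjusted p = 0.0239 with limma). The part of fat cells in the muscle values was not tested. Of 7 hepatocyte markers all were higher in LP muscle (median 0.50) and 4 lay above the median level. Their mean relative to NP was 0.09, 0.20 and 1.61 in the LP arrays, and averaged 0.64 in NPtau and 0.40 in LPtau. The 8 muscle fibre markers, all above the median level, were lower in LP (median -0.30), with 0 called in either list. Without NPtau replicate 3 in the fit, 0 of 26 were called for low protein and 0 for taurine added to it.

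**Figure D4:**
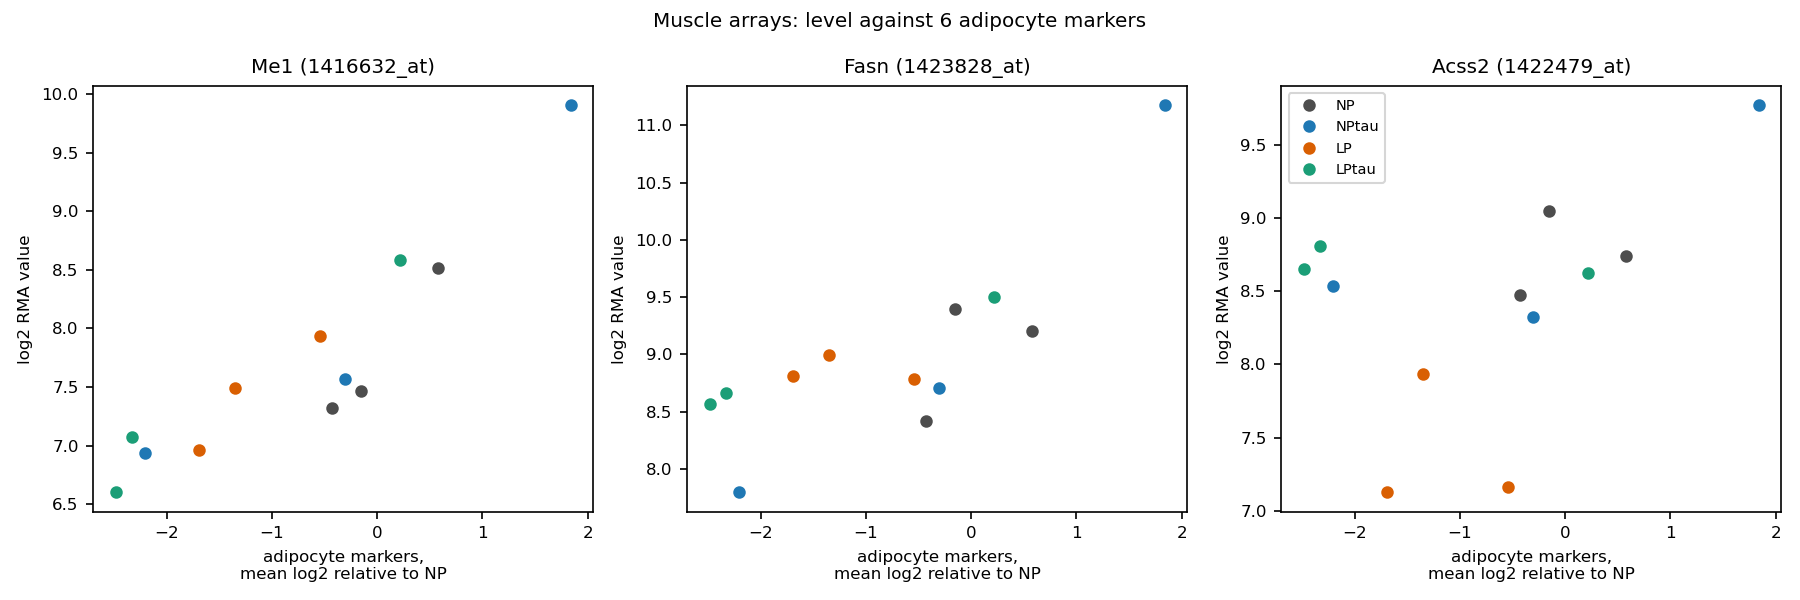
Log2 level of Me1, Fasn and Acss2 in the 12 muscle arrays (y axis) against the mean of 6 adipocyte markers relative to NP (x axis, log2), coloured by diet. Me1, Fasn and Acss2 are each highest in the NPtau array with the most adipocyte marker RNA. For Acss2 the 3 LP arrays are lowest, and their marker levels lie within the range of the other diets.

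The difference between the tissues was tested in a fit of all 24 arrays, which takes liver and muscle arrays as separate samples. The labels do not say whether same-numbered arrays come from 1 pup, and by Xist against Eif2s3y, a gene of the Y chromosome, 12 of 12 same-numbered pairs of a diet matched in sex. For LP minus NP 0 of 26 were called with limma, against 1.20% of all probe sets, and 8 had an unadjusted p under 0.05, against 16.2%. Fads2 1419031_at came nearest, with -2.13 in liver and 0.14 in muscle, which leaves -2.27 between them (SE 0.60) and an adjusted p of 0.0686 in limma. Its probe set 1449325_at differed by -1.50 (adjusted p = 0.114 with limma). Fads1 1423680_at differed by -1.25 (SE 0.51, adjusted p = 0.233 with limma), and Acss2 1422478_a_at by -1.94 (SE 0.67, adjusted p = 0.162 with limma). Thrsp went the other way, with 0.07 in liver, where the probe set was dim, and -1.91 in muscle on 1422973_a_at (adjusted p = 0.167 with limma). On Thrsp 1424737_at both tissues were negative, with -1.22 in liver and -2.57 in muscle, a difference of 1.35 (adjusted p = 0.510 with limma). For LPtau minus LP 0 were called with limma, against 0.0711%, and 5 had an unadjusted p under 0.05, against 12.2%, with Fads2 1419031_at at 2.28 (SE 0.60, adjusted p = 0.160 with limma). Me1 1430307_a_at gave -1.40 in liver and -1.21 in muscle for LP minus NP, a difference of -0.19 (SE 0.93). Thus no member was shown to differ between liver and muscle at the threshold, nor does that show that they did not differ.

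**Figure D5:**
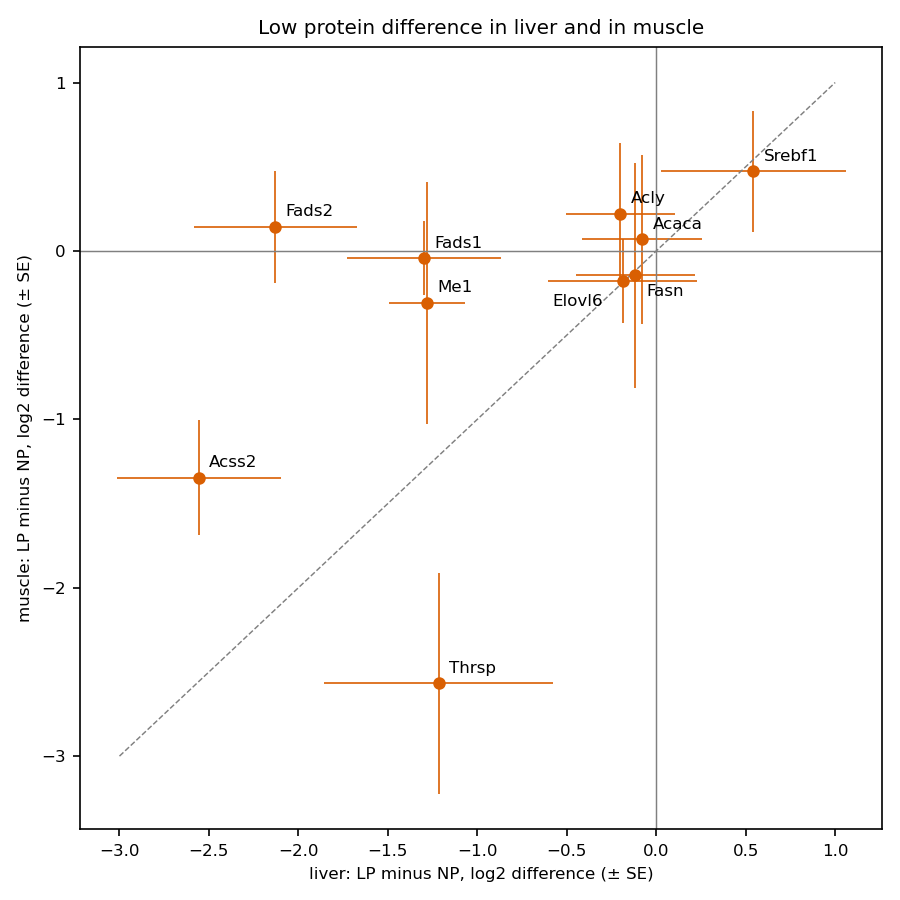
LP minus NP in liver (x axis) against muscle (y axis), as log2 differences with the SE of limma, for the 10 genes on the probe sets drawn for the levels, and with the line of equal differences dashed. On the probe sets drawn, Fads2, Fads1 and Me1 lie left of that line near 0 in muscle, Acss2 is negative in both tissues, and Thrsp lies lowest in muscle.

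Several members varied together in liver. Over the 12 arrays, which share diets and normalization, Acss2, Me1, Fads1 and Fads2 had pairwise correlations of 0.87 to 0.93, and Fads1 with Fads2 had 0.83 within diets. Fasn followed Elovl6 (0.90) and Srebf1 (0.75) and not Acss2 (-0.03). Acly and Acaca went with each other (0.80), and Acaca also with Srebf1 (0.82). With Fads1 and Fads2, Acly had 0.77 and 0.59 over the 12 arrays, and 0.90 and 0.75 within diets. Acaca had 0.66 and 0.39 with them over the 12 arrays, and 0.82 and 0.54 within diets. In muscle Fasn and Acaca had a correlation of 0.96 and Acss2 and Thrsp one of 0.90. The pattern most like the mean of the 10 genes in liver was that of Sc5d (0.94), Hmgcs1 (0.94), Gid4 (0.93), Fdps (0.93) and Fdft1 (0.92), over 12 arrays. In muscle it was that of Prkar2b (0.93), Pck1, Slc25a10 (0.92 each), Adhfe1 and Sh2b2 (0.91 each).

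Further genes of the pathway were counted in LP against NP liver. A gene counts here when any of its probe sets passed, which 1.37% of all 18193 genes did downward and 1.03% upward. Of 14 other desaturases and elongases 3 fell and 0 rose. Scd1, the desaturase that makes oleate, fell by 3.08 on 1415965_at (SE 0.35, adjusted p = 0.0101 with limma), and its brighter probe set 1415964_at gave -2.31 (adjusted p = 0.0653 with limma). Elovl2, an elongase of polyunsaturated fatty acids, fell by 1.24 (adjusted p = 0.0177 with limma) and Elovl7 by 0.94 on 1 of 6 probe sets. The list had a median of -0.16, beside 0.05 over all genes. In LPtau against LP Scd1 gave 1.91 on both probe sets, not called. Of 12 genes of acetyl-CoA, citrate and NADPH supply 0 passed, with Me2 at -0.49 and Aco1 at 0.85 on the probe set of smallest p and 0.27 on its brightest. Of 14 genes of triglyceride assembly 0 passed, with Acsl5 at -0.76 and Agpat3 at 0.50. Of 16 regulators 0 passed, with Insig2, which holds back the processing of sterol regulatory proteins, at -1.74 and the fatty acid receptor Ppara at -0.63, against -1.11 and -0.41 on their brightest probe sets. Of 14 genes of cholesterol synthesis and uptake 0 passed, 12 were negative and the median was -0.51, with Mvk at 0.73 and Cyp51 at -1.22. In LPtau against LP 13 of those 14 were positive, with a median of 0.65, and 0 passed. In muscle, where 0.0275% of all genes fell and 0.0110% rose in LP against NP, and 0.00550% fell and 0.0220% rose in LPtau against LP, 0 genes of the 5 lists passed in either comparison, with Fads3 at -0.92 (adjusted p = 0.0715 with limma) and Acacb at -1.36 (adjusted p = 0.151 with limma) in LP against NP.

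Some properties of the arrays moved with the liver result. All 7 hepatocyte markers lay above the median level in liver, and their mean relative to NP was -0.0092 to -0.0026 in LP, with 0 of 7 called. Single markers went both ways in LP against NP, with 4 lower and 3 higher. All but Apob lay near the highest values of the data, and whether they could register a change was not tested. The mean of 7 lymphocyte markers ran from -0.09 to 0.06 in NP and from -1.27 to -0.84 in LP (2 of 7 called), that of 8 endothelial markers from -0.18 to 0.10 and from -0.55 to -0.36 (3 called), and all 8 granulocyte markers were lower in LP (0 called), as were 6 of 7 erythroid markers (median -0.34, 0 called). In LPtau against LP 8 of 8 granulocyte markers were higher (median 0.47), as were 7 of 8 endothelial (0.41) and 5 of 7 lymphocyte markers (0.84). Of 7 erythroid markers 5 were higher, with a median of only 0.06. Their mean relative to NP was -0.38 in LP and -0.32 in LPtau. In these lists 0 were called for LPtau against LP. Of 6 adipocyte markers in liver 2 were lower and 4 higher in LP against NP (median 0.17), and 3 lay above the median level. Those 3 were Fabp4, the only marker of the list called, which fell by 1.27, and Lipe at 0.38 and Retn at 0.18. Adipoq and Lep were dim there. The part of these cells in the values of the members was not tested. By Xist, 2 of 3 LP and NPtau arrays and 1 of 3 NP and LPtau arrays came from females in each tissue, and with Xist in the fit 5 of the 26 were called in LP against NP liver. Liver LP replicate 1 and NPtau replicate 2, and muscle LP replicate 1 and LPtau replicate 1, stood apart from their groups, with 1026 to 2177 probe sets over 1 from the group median against 36 to 509 in the other arrays. Without them, 1 at a time, the liver count of LP against NP was 6 and 5, the muscle count stayed at 0, and the count of LPtau against LP was 0 in liver.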

How the data were processed

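Values deposited by the authors are log2 expression per probe set, per the submitters' processing notes, which list RMA, R 2.7.0 and, without a role, MAS5. Liver and muscle were normalized apart, per the labels. The values ran from 2.75 to 15.01, and array medians from 5.36 to 5.39 in liver and from 4.95 to 5.04 in muscle. All columns were matched to samples by title. Of 45101 probe sets 64 controls were dropped and 45037 tested, with no filter on level. Symbols come from the platform annotation, and 34945 probe sets have 1.

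With lmFit, contrasts.fit and eBayes, limma 3.58.1 (R 4.3.3) fitted 4 diet means to the 12 arrays of a tissue, and 8 means to all 24 for the tissue difference. Calls are at a Benjamini-Hochberg adjusted p under 0.05 over 45037 probe sets in 1 contrast. An exact test of 3 against 3 arrays cannot go below 0.1, two-sided. The script was tested on simulated data. The brightest probe set of a gene has the highest mean in the tissue. Intervals are 95% intervals of limma. All members are named, some probe sets by their range. Of other lists, up to 3 called genes per direction are named, or the 2 with the smallest p. Members, lists and alternatives were chosen with earlier results of these data known. Alternatives were cyclic loess, a filter on dim probe sets, 1 probe set per gene, trend and robust eBayes, the replicate block, Xist as a covariate, leaving out each replicate and, added after seeing the data, leaving out single arrays of other groups. Some genes of the other lists were not analysed here.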

Additional observations from a re-analysis of the deposited data

How the results depend on the processing

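The number of arrays limits every result here, and signal near background limits the dim probe sets. The count of 4 member probe sets called in liver LP against NP was 4 with loess, 6 above the median level, 3 with 1 probe set per gene, 6 with trend and robust eBayes and 5 with Xist. The deviations of same-numbered arrays had correlations of -0.24 to 0.36 in liver, -0.31 to 0.25 in muscle and -0.05 to 0.20 between the tissues. Not every pair was over 0.1, so the numbers were not taken as pairs, and the replicate block gave 7. Leaving out 1 replicate gave 0 to 6. For the tissue difference, the block of same-numbered liver and muscle arrays of a diet gave 0 calls, with Fads2 1419031_at at an adjusted p of 0.0556 in limma. The tissue difference in LP against NP, at 0, became 1 above the median level and 0 to 1 without a replicate. All other counts of member probe sets stayed at 0 under every alternative run. Signs turned only for differences that were not called. With Xist, liver Acaca in LP against NP became 0.0736 and liver Srebf1 in LPtau against LP -0.0644, and in muscle Fads1 became 0.0387 and Fasn 0.18 in LP against NP, and Fasn -0.23 in LPtau against LP. With loess, muscle Me1 in LPtau against LP became 0.0622. Leaving out a replicate moved liver LP against NP over -0.46 to 0.11 for Elovl6, -0.35 to 0.0761 for Fasn, -0.34 to 0.23 for Acaca, -0.13 to 0.0574 for Thrsp 1444166_at and -0.46 to 0.0848 for Acly, and LPtau against LP over -0.20 to 0.46 for Srebf1 and -0.17 to 0.0168 for Thrsp 1444166_at. In muscle it moved LP against NP over -0.54 to 0.0681 for Me1, -0.36 to 0.0279 for Elovl6, -0.024 to 0.31 for Fads2, -0.12 to 0.0723 for Fads1, -0.44 to 0.0509 for Fasn and -0.0542 to 0.17 for Acaca, and LPtau against LP over -0.62 to 0.37 for Me1, -0.45 to 0.25 for Fads2, -0.0118 to 0.27 for Fads1, -0.25 to 0.22 for Fasn and -0.31 to 0.0277 for Acaca. The causes were not tested.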
